A study of Homo sapiens with 18 samples.

Results

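Unstressed HEK293doxERN2 cells given a low dose of doxycycline were compared with uninduced cells of the same line, across all genes measured by RNA-Seq. The comparison used 6 of the 18 libraries of the series, chosen by their labels: 3 labelled Low ERN2, control and 3 labelled No ERN2, control. HEK293 is a human embryonic kidney line, and HEK293doxERN2 carries a Flag-tagged human ERN2 transgene under the control of doxycycline. Low ERN2 cells received 10 ng/mL doxycycline for 24 hours and No ERN2 cells received 0 ng/mL, and both groups were given DMSO for 3 hours as the vehicle of thapsigargin. The series has no cells that received doxycycline without the transgene, so effects of doxycycline and of ERN2 cannot be told apart. The labels do not say whether replicates were separate cultures, so p-values measure only the spread between these libraries. The 6 libraries held 17694360 to 22802273 reads counted on genes.

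ERN2, also called IRE1β, is a sensor of the unfolded protein response, the program that adjusts the endoplasmic reticulum (ER) to its protein load. It is normally made in mucus-secreting epithelium, whereas its relative ERN1 (IRE1α) is made widely. The cytosolic part of such a sensor is an RNase that excises an intron from XBP1 mRNA, which yields an active transcription factor for genes of the secretory pathway, and it can also cleave other mRNAs at the ER membrane, a process called regulated IRE1-dependent decay (RIDD).

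At this dose, ERN2 mRNA was 4.5-fold the uninduced level, and 27 other genes were called. Those that rose included genes of the XBP1 arm of the unfolded protein response, the channel through which proteins enter the ER, cochaperones, and the coats that carry proteins out of the ER. Genes that fell encode proteins that pass through this pathway: protein S, subunits of type IV collagen and laminin, an integrin subunit, a lysosomal hydrolase, proteins of the Golgi and a retinol dehydrogenase. Of 14497 genes tested with edgeR's quasi-likelihood test, 28 passed an adjusted p of 0.01 (0.193%), 20 of them higher (0.138%) and 8 lower (0.0552%). In all 28 the values of the groups did not overlap, as was the case for 29.8% of all genes tested. At an unadjusted p of 0.05, 2028 genes were higher and 2393 lower (14.0% and 16.5%), and 50.3% of all genes had a fold change above 0.

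The number of calls rested on single libraries, although no called gene changed direction. Without Low ERN2 replicate 1 it was 2743, with all 28 genes still called, and without Low ERN2 replicate 3 it was 19, with 16 of the 28 still called. Without any 1 of the other 4 libraries, edgeR called 0 genes, while 2243 to 3942 genes were under an unadjusted p of 0.05. DESeq2 called 378 genes in the 6 libraries, 27 of the 28 among them. The other, BHLHA15, had a log2 fold change of 2.56 in DESeq2, which gave it no adjusted p.

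The 6 libraries differed in a gene-wide trend with base composition that partly followed the groups. When genes were divided into quintiles by the GC content of their transcript, the median log2 fold change ran from -0.35 in the lowest quintile to 0.29 in the highest, and Spearman's rho between GC content and fold change was 0.69 across 14079 genes, which are not independent of each other. In Low ERN2 replicates 2 and 3 the medians of the outer quintiles were -0.44 and 0.33, and -0.46 and 0.39, relative to the uninduced mean, but in Low ERN2 replicate 1 they were -0.12 and 0.08. No ERN2 replicate 2 ran the other way, from 0.20 to -0.09. The same fold changes in the thapsigargin-treated libraries ran only from -0.07 to 0.07. The part of this trend in the results below was not tested, so each group of genes is also given after the trends of each library with GC content and transcript length were removed, a step chosen after seeing the data. That fit called 137 of 14079 genes (0.973%), 57 higher (0.405%) and 80 lower (0.568%). It kept 26 of the 28 genes, and lost DERL3 (adjusted p = 0.0408) and CCDC163P (adjusted p = 0.0115).

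**Figure D1:**
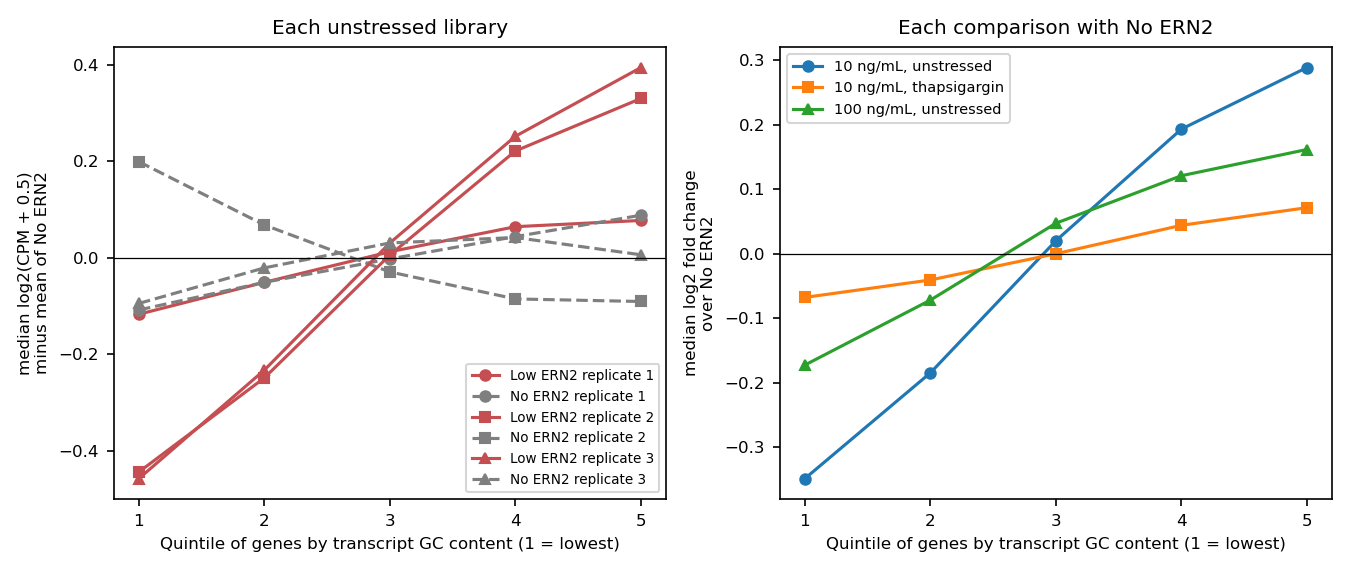
The left panel plots, for each unstressed library, the median log2(CPM + 0.5) minus the uninduced mean over genes grouped into quintiles by transcript GC content, and the right panel plots the median log2 fold change over No ERN2 in 3 comparisons. Low ERN2 replicates 2 and 3 rise steeply from -0.44 and -0.46, while Low ERN2 replicate 1 lies close to the uninduced libraries.

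ERN2 itself was higher in each induced library, and varied more at this dose than in the other unstressed groups. Its level was 9.26, 6.66 and 7.83 CPM (read counts scaled to a common library size, with TMM factors over all 18 libraries) in No ERN2 replicates 1 to 3, and 23.0, 27.2 and 56.8 CPM in Low ERN2 replicates 1 to 3. The lowest induced library thus lay 2.48-fold above the highest uninduced one, and replicate 3 stood well above the other induced libraries. The means were 7.92 ± 1.30 and 35.7 ± 18.4 CPM (SD, n = 3), a log2 fold change of 2.17 (SE 0.294, adjusted p = 0.00575). The coefficient of variation was 51.7% at 10 ng/mL, against 16.4% without doxycycline and 13.5% at 100 ng/mL, where ERN2 reached 266 ± 36.1 CPM (SD, n = 3). The thapsigargin-treated libraries at 10 ng/mL held 32.3, 54.5 and 111 CPM, a coefficient of variation of 61.7%, and there too replicate 3 was the highest. These counts add reads of the transgene to those of the cell's own ERN2 gene (chr16:23690326-23713500, minus strand, GRCh38). ERN1 was at 7.58, 7.26 and 8.47 CPM without doxycycline and at 7.47, 7.60 and 8.25 CPM with it, ranges that overlap.

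**Figure D2:**
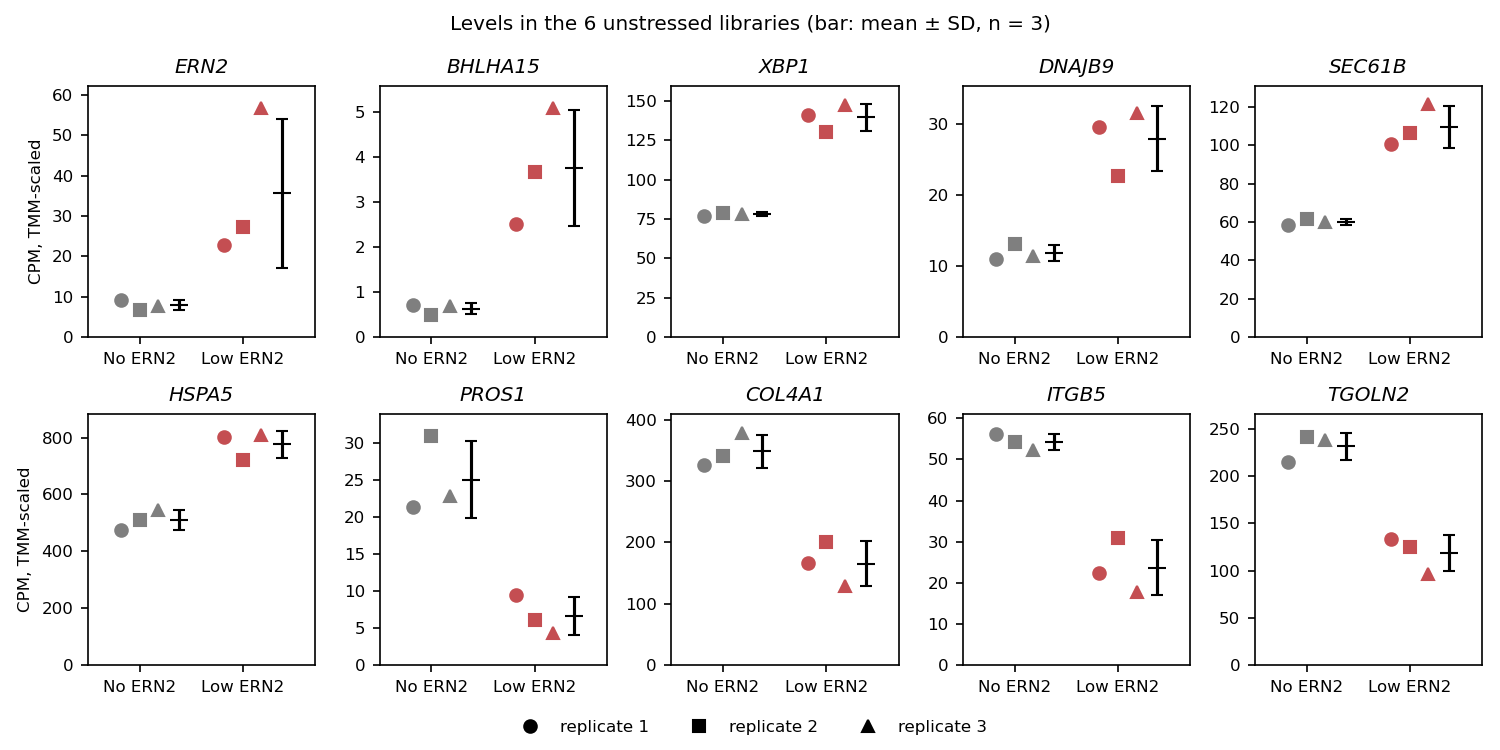
Each panel plots TMM-scaled counts (CPM) in the 3 No ERN2 libraries (grey) and the 3 Low ERN2 libraries (red), with the symbol giving the replicate and the black bar the mean and SD. ERN2 spans 23.0 to 56.8 CPM among the induced libraries, whereas XBP1 spans only 130 to 147 CPM.

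Of 14 sensors and transcription factors of the unfolded protein response, 4 were called higher and 0 lower. Over all genes tested the shares were 0.138% and 0.0552%. The 4 were XBP1, BHLHA15, CREB3L2 and ERN2, the last of which doxycycline induces by design. XBP1, the factor that the IRE1 RNase activates, was at 76.7, 79.1 and 78.3 CPM without doxycycline and at 141, 130 and 147 CPM with it. The increase was thus of similar size in all 3 induced libraries, although their ERN2 differed 2.47-fold (log2 fold change 0.84, SE 0.103, adjusted p = 0.00527). BHLHA15 (MIST1), a transcription factor of secretory cells and a known target of XBP1, was at 0.712, 0.495 and 0.696 CPM without doxycycline (9 to 14 reads) and at 2.51, 3.67 and 5.09 CPM with it (52 to 113 reads). It was the largest increase among the called genes (log2 fold change 2.56, SE 0.340, adjusted p = 0.00542), and its order among the induced libraries was that of ERN2. The medians of the highest GC quintile, where BHLHA15 lies, had the same order. With GC and length trends removed its log2 fold change was 2.04. CREB3L2, a membrane-bound transcription factor of the ER, rose by 0.77 on the log2 scale. DDIT3 (CHOP), the proapoptotic factor of the PERK arm, had a log2 fold change of 0.41 that did not pass the test (adjusted p = 0.108). With GC and length trends removed the same 4 of the 14 were called, and the median of the list went from 0.14 to 0.04. Gene counts carry no measure of XBP1 splicing.

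The sequence elements that tie XBP1 to this pathway are shown because the XBP1 transcript is at once the substrate of the RNase and a called gene. A search of 1 transcript a gene for a 7-base loop of the form CNGCAGN closed by a stem of 5 base pairs found 2 such sites in XBP1, both in the coding part of exon 4 and 26 bases apart, which is the interval that the RNase excises. BLOC1S1, a RIDD target known from ERN1, also holds one. The loops are in capitals, and the coordinates are GRCh38.
XBP1, chr22:28796144-28796160, minus strand: tgagtCCGCAGCactca
XBP1, chr22:28796118-28796134, minus strand: cacctCTGCAGCaggtg
BLOC1S1, chr12:55719584-55719600, plus strand, exon 4: ggcagCTGCAGTctgcc
BLOC1S1, a subunit of a lysosome-related organelle complex, was at 8.64, 6.99 and 6.38 CPM without doxycycline and at 6.22, 9.06 and 6.81 CPM with it. These ranges overlap, and the log2 fold change was 0.00 in the main fit and -0.44 with GC and length trends removed, which did not pass the test there either (adjusted p = 0.185).

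Of 30 targets of XBP1, a list drawn up with earlier results of these data known, like the other function lists, 7 rose and 0 fell. Over all genes tested, 0.138% were called higher and 0.0552% lower. The median log2 fold change of the list was 0.42, against 0.00 over all genes tested. The median over members was 0.42, 0.37 and 0.44 above the uninduced mean in Low ERN2 replicates 1 to 3, nearly equal although ERN2 was not. The function lists overlap, and all 7 of these genes also stand in another list: BHLHA15 among the transcription factors, DNAJB9 and FICD among the chaperones, SEC61A1, SEC61B and SSR2 among the genes for entry into the ER, and SEC24D in the COPII coat. With GC and length trends removed, 13 of the 30 were called higher (0.405% of all genes) and the median was 0.48. DNAJB9 (ERdj4), a cochaperone of BiP, was at 10.9, 13.1 and 11.4 CPM without doxycycline and at 29.6, 22.7 and 31.5 CPM with it, a log2 fold change of 1.24 (SE 0.158, adjusted p = 0.00527). FICD, an ER enzyme that modifies BiP, went from 4.68, 5.06 and 5.16 CPM to 11.1, 11.8 and 13.0 CPM (log2 fold change 1.27, SE 0.160). The induced values of FICD lay within a narrow band, far above the uninduced ones.

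Promoters of the called genes were searched on both strands for the ER stress element (ERSE, CCAAT and CCACG with 9 bases of any kind between them), ERSE-II (ATTGG and CCACG with 1 base between) and the core of the unfolded protein response element (UPRE, TGACGTGG), within 250 bases before to 50 after the start of each gene in RefSeq. Of 16 called-higher genes with a promoter in the table, 2 held ERSE (12.5%), FICD and XBP1, whereas 14 of 11427 tested genes did (0.123%). None of the 7 called-lower genes with a promoter held any of the motifs. Among the genes called higher once GC and length trends were removed, 11 of 49 held at least 1 of the 3 motifs (22.4%), against 1.20% of all tested genes and 1 of 65 genes called lower (1.54%). Examples are shown with the motif in capitals (GRCh38.p14), since these elements are named for ER stress and the unfolded protein response, and not for XBP1 alone.
FICD, chr12:108515118-108515146, plus strand, ERSE: aacaaCCAATGGGAGTGGCCCACGgcgcg
XBP1, chr22:28800598-28800626, minus strand, ERSE: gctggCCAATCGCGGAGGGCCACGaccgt
HSPA5, chr9:125241386-125241414, minus strand, ERSE: cttcaCCAATCGGCGGCCTCCACGacggg
CANX, chr5:179698773-179698801, plus strand, ERSE: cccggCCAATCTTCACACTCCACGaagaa
HERPUD1, chr16:56932020-56932040, plus strand, ERSE-II: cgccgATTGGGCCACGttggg
NANS, chr9:98056686-98056703, plus strand, UPRE core: cgggcTGACGTGGcgggg
STX5, chr11:62832055-62832072, minus strand, UPRE core: gtaggTGACGTGGccgct
A match describes letters in this window and is not a measured binding site.

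Chaperone genes under ATF6, another sensor of the response, had a median fold change above 0, but none passed the main test. HSPA5 (BiP), the central chaperone of the ER lumen, was at 476, 511 and 544 CPM without doxycycline and at 800, 721 and 807 CPM with it. The groups did not overlap, yet the adjusted p missed the threshold (log2 fold change 0.61, SE 0.0977, adjusted p = 0.0140), and passed it with GC and length trends removed (log2 fold change 0.73, adjusted p = 0.000380). Of 11 ATF6 targets, 0 were called in the main fit at a median log2 fold change of 0.41. Removing the trends gave 3 called higher (HSPA5, PDIA4 and HERPUD1) at a median of 0.24. CALR (calreticulin), a lectin chaperone in the same list, differed in sign (log2 fold change -0.40, adjusted p = 0.0845). Among 26 targets of the PERK, ATF4 and CHOP arm, 0 were called in either direction, with a median of 0.18 (0.12 with the trends removed), and SLC7A5, an amino acid transporter, was the only one called, as lower, after the trends were removed.

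Genes for entry into the ER supplied a few of the calls. Of 25 genes of the signal recognition particle, translocon and signal peptidase, 3 were called higher and 0 lower (0.138% and 0.0552% of all genes). All 3 are counted above among the XBP1 targets. SEC61B, a subunit of the translocon channel, was at 58.6, 61.3 and 60.1 CPM without doxycycline and at 101, 106 and 121 CPM with it (log2 fold change 0.87, SE 0.112, adjusted p = 0.00527). The induced libraries all lay far above the uninduced ones. SEC61A1, the pore itself, rose by 0.78 on the log2 scale, and SSR2, a subunit of the translocon-associated complex, rose by 1.02 (adjusted p = 0.00424). With the trends removed the list's median went from 0.10 to 0.21, and 7 of the 25 were called higher (0.405% of all genes). Among them were SSR1 and SSR3 of the same complex, at log2 fold changes of 0.70 and 0.73. Their values without that step were 0.35 and 0.39 and did not pass. These genes and the others given for that fit alone were named after their values were seen.

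Genes for folding and glycosylation inside the ER moved less evenly. Among 27 chaperones and cofactors, DNAJB9 and FICD, also XBP1 targets, were the calls of the main fit. Once the trends were removed, HSPA5 and CANX (calnexin) were called higher as well and CNPY2, an ER protein of the canopy family, lower, at a median of 0.16 against 0.18 in the main fit. Of 21 protein disulfide isomerases and oxidases, 0 passed, and the median of the list changed sign with the processing, from -0.08 to 0.12 once the trends were removed. Members of that list then went both ways, with PDIA4 higher (log2 fold change 0.57) and the oxidoreductases PRDX4 and TXNDC12 lower (-0.97 and -0.77). Among 37 genes of the oligosaccharyltransferase and the N-glycan precursor, TMEM258, a subunit of the transferase, was the only call of the main fit, at a log2 fold change of 0.96 (adjusted p = 0.00966). Its values rose from 30.2, 25.7 and 28.2 CPM to 45.0, 54.9 and 64.0 CPM. Removal of the trends added ALG2, a mannosyltransferase, and OSTC, another transferase subunit, both higher, and moved the median from 0.02 to -0.02. GMPPA, which belongs to the enzyme complex that makes GDP-mannose for glycans, went from 25.5, 25.3 and 27.2 CPM to 46.8, 57.1 and 65.1 CPM (log2 fold change 1.12). Of 28 genes of ER-associated degradation, DERL3, a derlin of the retrotranslocation machinery, was called higher at 0.88. With the trends removed it lost its call, HERPUD1 and SYVN1, a ubiquitin ligase, were called higher, and the median went from 0.07 to 0.18. DERL3 shares 2923 of its 3796 exonic bases with SMARCB1 on the opposite strand. Whether the counting used strand is not given in the sources used here, so the reads of the pair may not have been told apart. Smaller overlaps with opposite-strand genes occur in other called genes, to which the same doubt applies. Among them are C19orf10 (277 of 1678 exonic bases), TMEM258 (400 of 3068, with MYRF), SEC61A1 (344 of 4697) and ERN2 (42 of 4998, with PLK1).

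Coats of transport vesicles were called in the upward direction alone in this comparison. SEC24D, a cargo adaptor of the COPII coat that buds from the ER, was at 30.4, 33.6 and 32.3 CPM without doxycycline and at 72.4, 64.1 and 64.8 CPM with it (log2 fold change 1.07, SE 0.117, adjusted p = 0.00469). It is counted above among the XBP1 targets too, and was 1 of 2 adaptors called among 15 COPII genes. The other, SEC24C, which shares 2293 of its 5341 exonic bases with an unnamed locus on the opposite strand, rose by 0.69. Removing the trends gave 4 of 15, with SEC23B of the inner coat and PREB, the exchange factor that starts coat assembly, added, and a median of 0.28 in place of 0.17. COPG1, a subunit of the COPI coat of retrograde transport, rose from 110, 99.6 and 95.7 CPM to 162, 183 and 182 CPM (log2 fold change 0.78, adjusted p = 0.00578), the only call of the main fit among 16 COPI and ARF genes, to which removal of the trends added ARF1 and ARF4 at a median of 0.23 in place of 0.27. None of 22 p24 proteins and other cargo receptors passed in the main fit. With the trends removed, TMED10, TMED7, LMAN1 and SURF4 were called higher and ERGIC1 lower, and the median went from 0.06 to 0.10.

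Of the called genes in none of these lists, SND1, a nuclease-domain protein of the RNA-induced silencing complex, rose from 176, 166 and 192 CPM to 297, 340 and 424 CPM (log2 fold change 0.99). C19orf10 (MYDGF), a growth factor that cells can keep in the ER, rose by 1.04, HID1, a peripheral protein of the Golgi, rose by 1.002, and CDK2AP2, a partner of the kinase CDK2, rose by 1.13. CCDC163P rose by 1.09 and lost its call when the trends were removed.

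**Figure D3:**
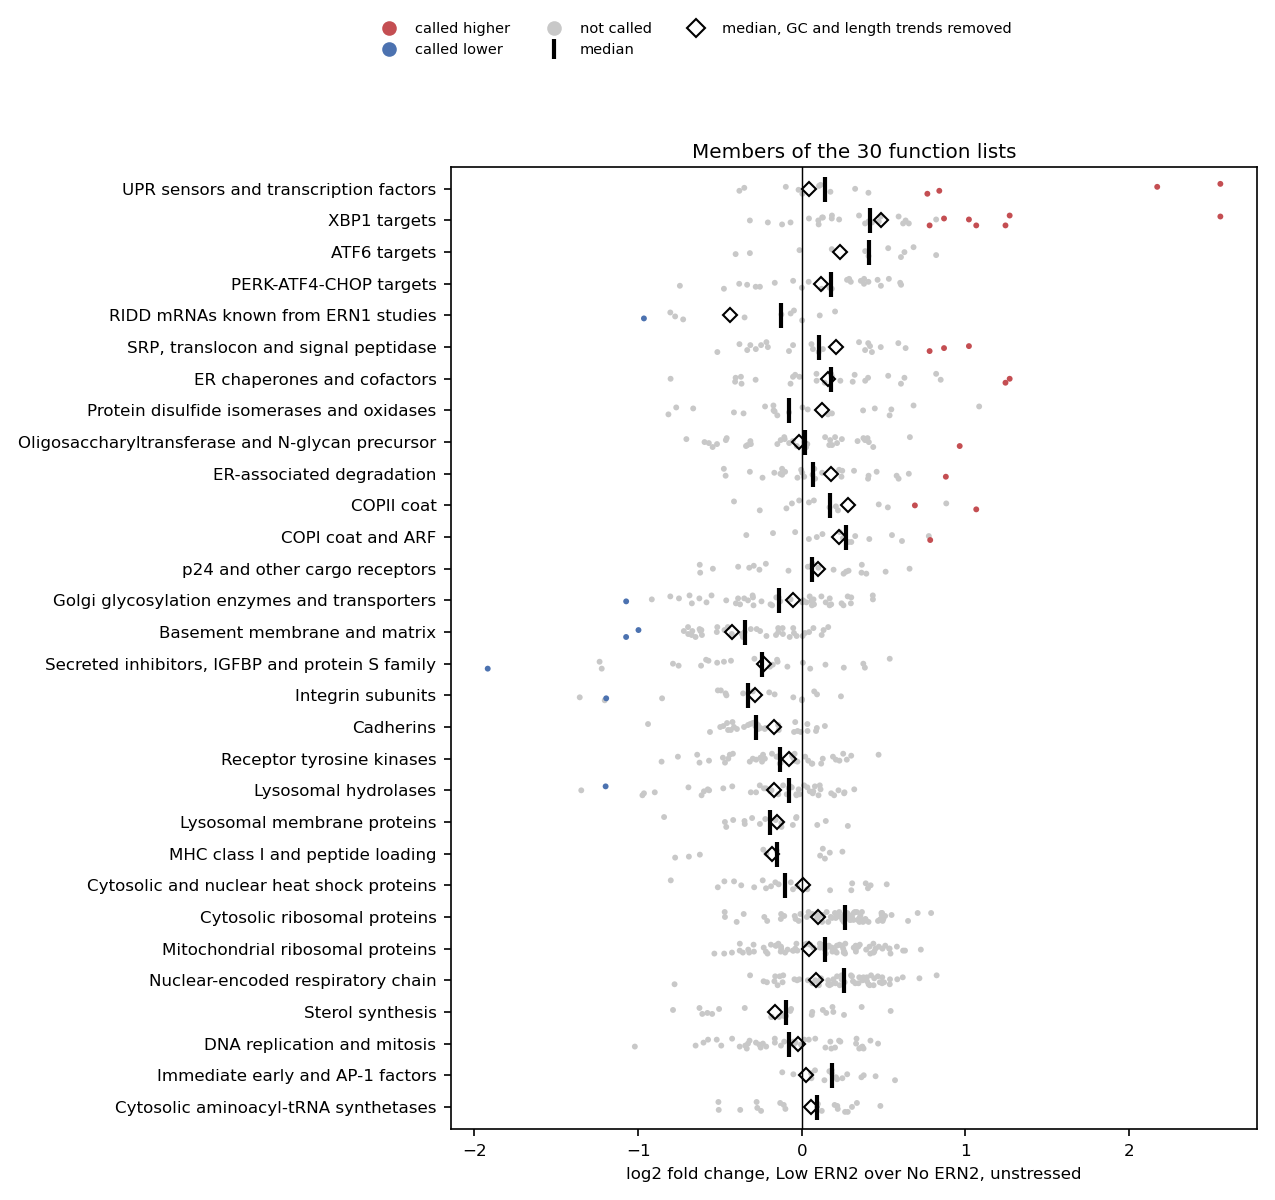
Each point is the log2 fold change of 1 gene, Low ERN2 over No ERN2 in unstressed cells, in 30 lists of functions, with called genes in red (higher) or blue (lower), the median as a black bar, and the median with GC and length trends removed as a diamond. Red points sit in the lists of the unfolded protein response, the ER and vesicle coats, and blue points in lists of secreted, surface, Golgi and lysosomal proteins and of RIDD mRNAs.

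The 8 genes that fell encode proteins made at the ER. PROS1, the gene of the secreted anticoagulant protein S, had the largest change among them, from 21.3, 31.0 and 22.9 CPM without doxycycline to 9.45, 6.09 and 4.33 CPM with it. Each induced library lay far under each uninduced one, and the decrease was deepest where ERN2 was highest (log2 fold change -1.92, SE 0.246, adjusted p = 0.00527). The medians of the lowest GC quintile, where PROS1 lies, had the same order of induced libraries. With GC and length trends removed the log2 fold change of PROS1 was -1.61. COL4A1, the type IV collagen chain of basement membranes, went from 326, 342 and 378 CPM to 167, 201 and 129 CPM (log2 fold change -1.07, SE 0.145, adjusted p = 0.00575). LAMC1, a laminin chain of the same membranes, went from 489, 501 and 520 CPM to 272, 297 and 186 CPM (log2 fold change -0.998, adjusted p = 0.00882). In both, replicate 3 was again the lowest and replicate 2 the highest of the induced libraries.

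ITGB5, the integrin subunit that binds vitronectin with the alpha V chain, was at 56.2, 54.2 and 52.3 CPM without doxycycline and at 22.4, 31.0 and 17.8 CPM with it (log2 fold change -1.20, SE 0.175, adjusted p = 0.00850). GGH, a lysosomal hydrolase of folate polyglutamates, went from 67.6, 78.1 and 66.1 CPM to 39.5, 30.7 and 22.1 CPM (log2 fold change -1.20, adjusted p = 0.00936). TMEM165, a Golgi ion transporter needed for glycosylation, went from 55.3, 55 and 56.1 CPM to 30.1, 29 and 19.97 CPM (log2 fold change -1.07). The uninduced values of TMEM165 were nearly equal, and the induced ones lay far under them. TGOLN2, a protein of the trans-Golgi network and the only gene called lower in the main fit among 11 RIDD mRNAs known from ERN1, went from 215, 241 and 238 CPM to 134, 125 and 96.7 CPM (log2 fold change -0.96, SE 0.127, adjusted p = 0.00542). RDH11, a retinol dehydrogenase of the ER membrane, went from 60.5, 77.3 and 78.3 CPM to 40.3, 38.2 and 33.0 CPM (log2 fold change -0.95).

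The order of the induced libraries was compared between ERN2 and the other called genes. Low ERN2 replicate 3, the library with the most ERN2, had the lowest induced value in 8 of these 8 genes, whereas 47.4% of all genes with a fold change below 0 were lowest there. Among the 20 genes that rose, ERN2 included, replicate 3 was the highest in 15 (58.2% of all genes with a fold change above 0) and replicate 1 the lowest in 15 (67.5%). The shares among the genes that rose were thus near those over all genes. A set of 3 libraries gives no test of a relation with ERN2, and replicate 3 also carried a strong GC trend.

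**Figure D4:**
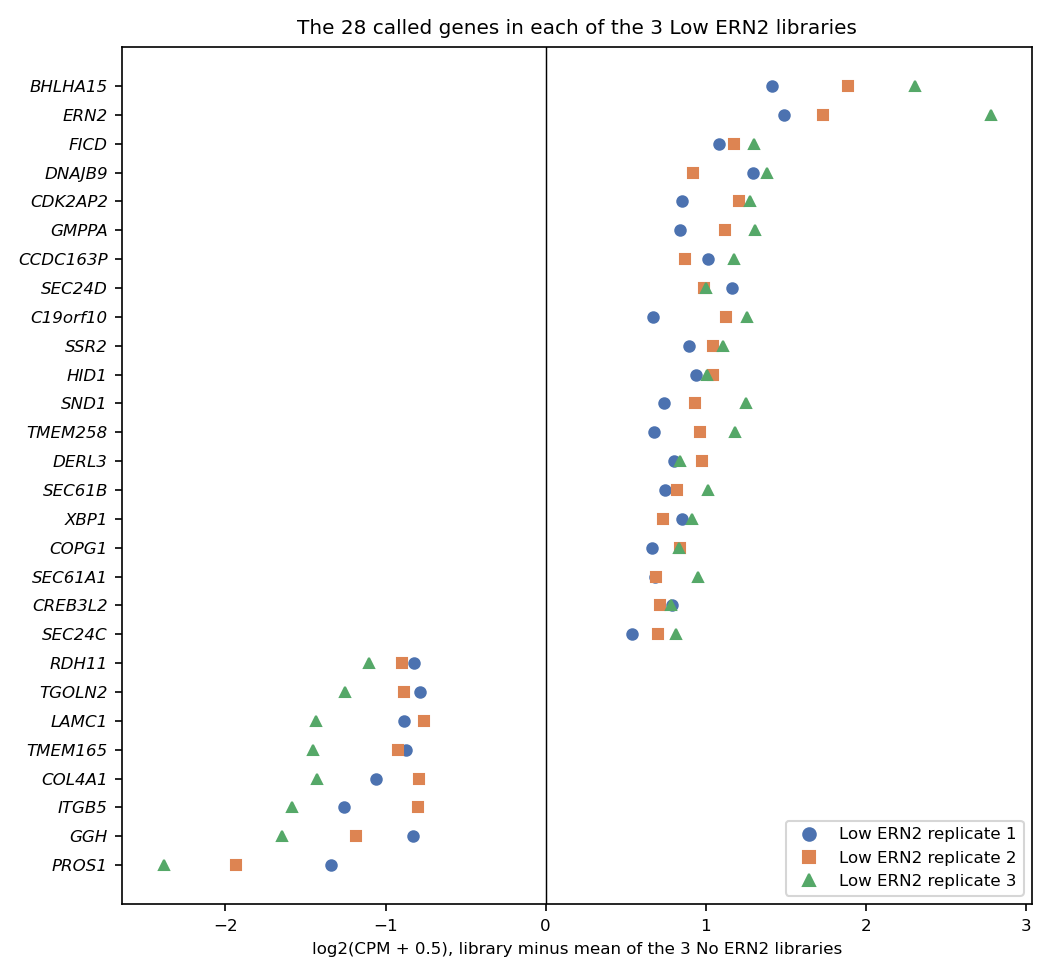
Each symbol is the log2(CPM + 0.5) of 1 Low ERN2 library minus the mean of the 3 No ERN2 libraries, for each of the 28 called genes. Replicate 3 (triangles) lies farthest to the left for each of the 8 genes that fell, and for ERN2 it stands apart from the other induced libraries.

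Medians of the lists of proteins that use the secretory pathway were below 0, with few calls. These lists too were drawn up with earlier results of these data known, so their counts are a description only. Some housekeeping lists, given further below, also had medians below 0 in the main fit. Of 41 basement membrane and matrix genes, 34 had a fold change below 0, as did 7211 of all 14497 genes tested. Of the 41, 2 were called lower and 0 higher, and the median log2 fold change was -0.35. By library the median was -0.30, -0.13 and -0.46 in Low ERN2 replicates 1 to 3, again lowest in replicate 3. With the trends removed the median was -0.43 and 38 of the 41 were below 0 (6905 of 14079 over all genes), but the calls rose only to 3, with COL5A1 added. The medians of 18 integrin subunits and 33 cadherins were -0.33 and -0.28, and 13 and 28 of their members were below 0. In the fit with trends removed their medians were -0.29 and -0.17, and the calls in these lists were ITGB5 and ITGB1 (log2 fold change -1.03), and CELSR1 and CELSR2 (-0.62 and -0.63).

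ITGB1, the integrin chain common to most matrix receptors, was at 369, 468 and 374 CPM without doxycycline and at 211, 165 and 96.1 CPM with it, and missed the main threshold (log2 fold change -1.36, SE 0.217, adjusted p = 0.0140). Of 24 secreted inhibitors and related proteins, PROS1 was the only call in the main fit, while removal of the trends added ANGPTL2, IGFBP2, IGFBP7 and TIMP1 at log2 fold changes of -1.38, -1.12, -0.95 and -0.96, and the median was -0.24 in the main fit and -0.23 in the other. Of 45 lysosomal hydrolases 1 was called lower in the main fit, GGH, and CTSA, NPC2 and PPT1 were among those called lower after removal of the trends. The median of that list was -0.08 in the main fit and -0.17 in the other. None of 41 receptor tyrosine kinases, 18 lysosomal membrane proteins and 11 genes of class I antigen presentation passed in either fit, with medians of -0.14, -0.19 and -0.15 in the main fit and -0.08, -0.15 and -0.18 in the other. Of 46 Golgi glycosylation genes, TMEM165 was the only call of the main fit, and GALNT10, which starts O-glycans, was added in the other, with medians of -0.14 and -0.06.

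In the main fit 8 of the 11 members of the RIDD list were below 0, as were 7211 of 14497 genes tested. At an unadjusted p of 0.05, 4 were lower (16.5% of all genes), and the list's median log2 fold change was -0.12. Leaving out 1 library moved that median between -0.02 (without Low ERN2 replicate 3) and -0.23 (without Low ERN2 replicate 1). With the trends removed the median was -0.44, 9 of 11 were below 0, and TGOLN2, GALNT10 and CD59, a surface inhibitor of complement, were called lower. CD59 went from 196, 194 and 192 CPM to 133, 130 and 89.6 CPM. The uninduced values were nearly equal and lay above all induced ones.

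A stem-loop of the XBP1 kind was present in 139 of 14079 transcripts (0.987%). RDH11 was the only 1 of the 8 called-lower genes with such a site. Of the 80 genes called lower with the trends removed, 5 held one (6.25%), and of the 57 called higher only XBP1 did (1.75%). The sites of RDH11, ITGB1 and GGCX, the gamma-glutamyl carboxylase, which was called lower in that fit, are shown with the loop in capitals (GRCh38), since they match the form of the XBP1 site in transcripts that were lower.
RDH11, chr14:67695707-67695723, minus strand, untranslated part of exon 1: tgccgCTGCAGCcggca
ITGB1, chr10:32929838-32929854, minus strand, exon 4: aaccaCAGCAGTtggtt
GGCX, chr2:85550716-85550732, minus strand, exon 14: cagagCTGCAGCctctg
Whether any of these sites is cut was not measured in these data.

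Protein features computed from the translated transcript differed between the called genes. Among 13263 classified genes, those with a hydrophobic segment near the amino terminus, as in a signal peptide, and no other long hydrophobic segment had a median log2 fold change of -0.07, those with both had -0.10, those with only a later segment had -0.03 and those with neither had 0.03. All 8 called-lower genes had an amino-terminal segment, 5 without and 3 with a later one, and 6 of the 20 called-higher genes had it, against 16.7% of all classified genes. After removal of the trends, 25 of 1017 genes of the first class were lower and 10 higher, 33 of 1193 of the second were lower and 8 higher, and 8 of 8597 genes with neither were lower and 19 higher. Within each quintile of GC content, the median of genes with any segment lay under that of genes with neither, at -0.36 against -0.34 in the lowest quintile and 0.20 against 0.32 in the highest. The hydropathy rule is coarse and missed, for example, the signal peptide region of ERN2.

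Housekeeping lists held no called gene in the main fit, and several of their medians moved when the GC and length trends were removed. Of 75 cytosolic ribosomal protein genes, 62 were above 0 (50.3% of all genes tested) and 41 were higher at an unadjusted p of 0.05 (14.0%). Their median log2 fold change was 0.26, which became 0.10 with the trends removed. By library the median was 0.08, 0.33 and 0.36 in Low ERN2 replicates 1 to 3, so that it was near the uninduced level in replicate 1 alone. Of 60 nuclear-encoded respiratory chain genes, the median went likewise from 0.26 to 0.09, and of 76 mitochondrial ribosomal proteins from 0.14 to 0.04. The 17 immediate early and AP-1 factors had a median of 0.18 and of 0.02 with the trends removed. Among 22 heat shock proteins of the cytosol and nucleus the median was -0.10, and 0.01 over the 21 with a GC value once the trends were removed. Medians were -0.08 for 42 genes of DNA replication and mitosis and 0.10 for 20 aminoacyl-tRNA synthetases, which became -0.02 and 0.06. Sterol synthesis went the other way, from a median of -0.10 with 14 of 23 genes below 0 to -0.16 with 19 below 0. After removal of the trends, CDC6, a replication licensing factor, and NDUFV3, a subunit of complex I, were higher and HMGCS1, an enzyme of sterol synthesis, was lower.

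The contrast between 10 ng/mL and no doxycycline was also available in 6 other libraries, from cells given thapsigargin (200 nM, 3 hours), which blocks calcium uptake by the ER. There edgeR called 0 of 14509 genes (0.0%), with 612 at an unadjusted p of 0.05 (4.22%) and 39 called by DESeq2. Same-numbered libraries deviated together here, and with the replicate number as a block edgeR called 564 genes (3.89%), 197 higher (1.36%) and 367 lower (2.53%). All 8 genes that fell in unstressed cells were below 0 in these libraries, with log2 fold changes of -1.09 to -0.54, and all 8 were lower at an unadjusted p of 0.05, as were 2.99% of all genes tested. None passed the adjusted threshold without the block and all 8 passed it with the block. For COL4A1 the values were -0.96 (SE 0.180, adjusted p = 0.292) without it and -0.99 (SE 0.0818, adjusted p = 1.99e-07) with it. Of the 20 genes that rose in unstressed cells, 18 were above 0 under thapsigargin (49.1% of all genes) and 7 were higher at an unadjusted p of 0.05 (1.23% of all genes). With the block 12 of the 20 were called higher, among them ERN2, SND1, SEC61B and SSR2. XBP1 was at -0.20 without the block and -0.21 with it (adjusted p = 0.0255), and DNAJB9 was at 0.01 and 0.03 (adjusted p = 0.835). XBP1 levels in thapsigargin-treated cells were 471, 500 and 492 CPM without doxycycline and 462, 439 and 369 CPM with 10 ng/mL, all above the 147 CPM of the highest unstressed library here.

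The difference between the 2 contrasts was tested as an interaction over the 12 libraries. None of 14857 genes passed an adjusted p of 0.01 with edgeR (0.0%), 664 were under an unadjusted p of 0.05 (4.47%), and DESeq2 called 2, XBP1 and FICD. With the replicate number as a block XBP1 alone was called (-1.04, adjusted p = 0.00595). That block also spans the unstressed libraries, whose same-numbered members did not deviate together. Whether the numbers pair unstressed with thapsigargin-treated libraries was not checked. For the genes that rose, 19 of 20 had a negative interaction (48.9% of all genes were above 0). Of these, 11 reached an unadjusted p of 0.05 (1.79% of all genes). All 8 genes that fell had a positive interaction, 0 of them at an unadjusted p of 0.05 (2.66% of all genes). Both sets had been chosen on the unstressed libraries, which enter this term, so the directions are a description only. Without the block XBP1 had the smallest adjusted p of these genes (interaction -1.04 on the log2 scale, adjusted p = 0.0277), followed by FICD (-1.13, adjusted p = 0.206). For ERN2 the interaction was 0.25 (SE 0.560, adjusted p = 0.895).

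At 100 ng/mL the same uninduced libraries serve as the reference, so values are given side by side. For XBP1 the log2 fold change over No ERN2 was 0.84 at the low dose and 1.03 at the high one. SSR2 had 1.02 and 1.03, and SEC61A1 had 0.78 and 0.80. DNAJB9 had 1.24 and 2.07, FICD had 1.27 and 1.85, and SEC24D had 1.07 and 1.64. The median over the 20 genes that rose was 1.01 and 1.07, and over the 8 that fell -1.07 and -2.31. COL4A1 had -1.07 and -2.92, ITGB5 had -1.20 and -2.80, and PROS1 had -1.92 and -3.40. Tested directly, 100 against 10 ng/mL gave 356 called genes of 14549 (2.45%), 2 higher (0.0137%) and 354 lower (2.43%). The genes that rose or fell at 10 ng/mL had been chosen on the 10 ng/mL libraries, which are the reference of this test. Their differences are therefore a description only. Of the 20 genes that rose at 10 ng/mL, ERN2 alone was called higher again (log2 difference 2.92, adjusted p = 0.00205). For XBP1 the difference was 0.21 (SE 0.102, adjusted p = 0.361) and for SSR2 it was 0.02 (adjusted p = 0.943), while DNAJB9 had 0.84 (adjusted p = 0.0192). Of the 8 genes that fell, 6 were called lower again at 100 ng/mL: ITGB5, COL4A1, TMEM165, LAMC1, TGOLN2 and RDH11, with differences of -1.84 for COL4A1 to -0.83 for RDH11. PROS1 and GGH differed by -1.47 and -0.91 and did not pass (adjusted p = 0.0193 and 0.0261). A missed threshold does not show that a gene had reached its full response at the low dose.

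**Figure D5:**
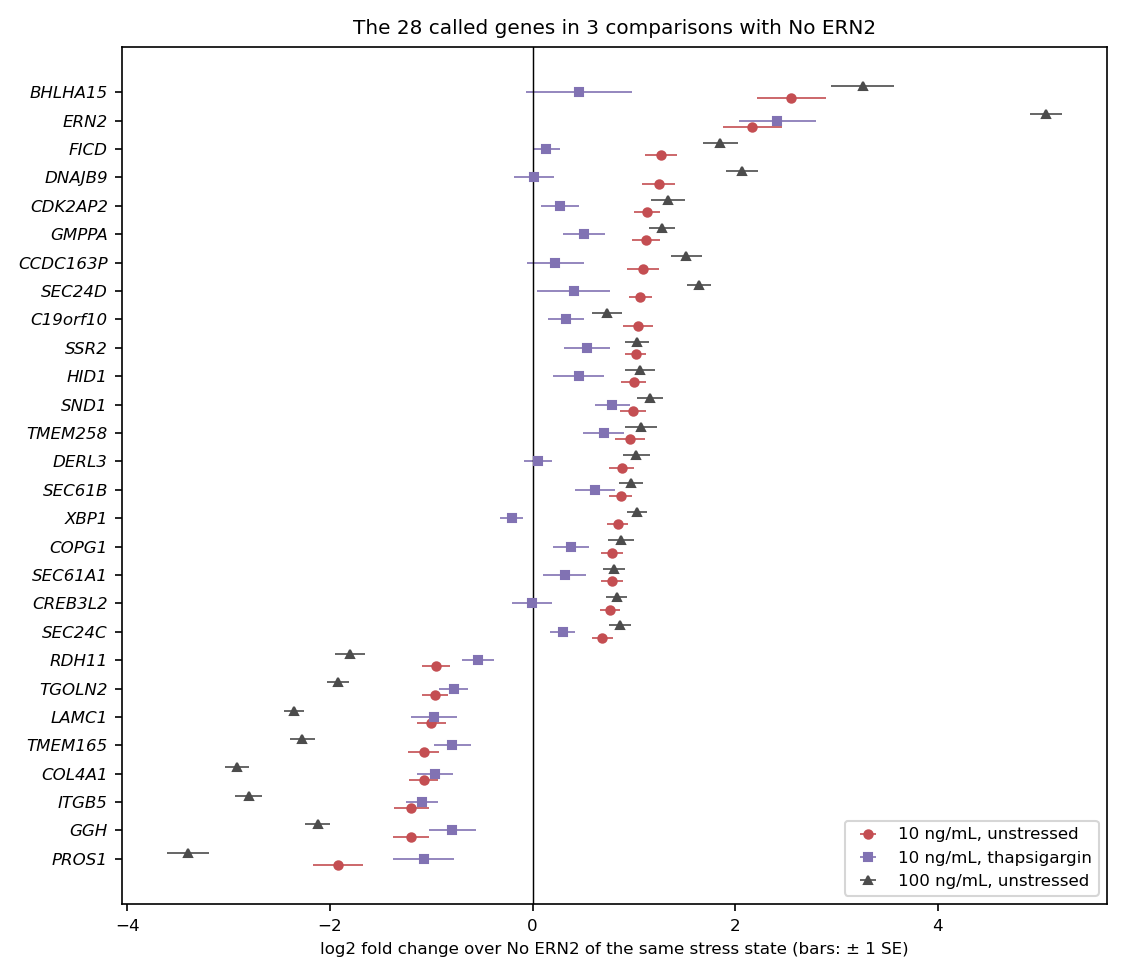
Log2 fold changes over the No ERN2 libraries of the same stress state, with bars of 1 SE, are plotted for the 28 genes called at 10 ng/mL in unstressed cells, in 3 comparisons of 3 against 3 libraries, of which the unstressed ones share their reference. Genes that fell lie between -0.54 and -1.09 under thapsigargin and between -1.80 and -3.40 at 100 ng/mL, whereas XBP1 lies at -0.20 under thapsigargin and at 1.03 at 100 ng/mL.

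The identity of the cells was checked by markers, since the extraction label names colon crypt cells. All 7 HEK293 markers were present, from PAX2 at 2.55 to 4.42 CPM up to VIM at 1739 to 2185 CPM. Of 10 markers of colon epithelium and goblet cells, TFF3, CLCA1 and ZG16 were at 0 in all 6 libraries, MUC2 reached at most 0.151 CPM, and CDX2 alone exceeded 1 CPM, at 4.02 to 7.03 CPM. Blood markers reached at most 0.302 CPM, and among fibroblast markers PDGFRA reached 1.98 CPM.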

How the data were processed

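RNA was prepared with a stranded mRNA kit and sequenced as single-end reads. STAR alignment to hg38, per the submitters' processing notes, was part of the VIPER pipeline. The values deposited are whole counts for each gene symbol, neither normalized nor filtered, with a column for each library. Neither the aligner's version nor the gene models and strand option of the counting are given in the sources used here. The table holds 25435 rows, of which 92 are spike-in rows with 0 counts and 28 carry a date in place of a symbol. Columns were matched to libraries through the sample labels, and groups come from the labels alone.

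Counts were filtered with filterByExpr (minimum count 10), scaled by TMM and tested with edgeR 4.0.16 (quasi-likelihood) in R 4.3.3, with p-values adjusted by Benjamini-Hochberg across the genes tested, at the study's threshold of 0.01. The main test used only the 6 libraries compared. Each SE was obtained as |log2 fold change| over the root of F. For 3 against 3 libraries the smallest two-sided p of an exact permutation test is 0.1. Members and function lists were chosen with earlier results of these data known. The named genes were ERN1 and ERN2, the response genes BHLHA15, BLOC1S1, DDIT3, DNAJB9, HSPA5 and XBP1, every called gene, up to 3 called members of each list or else its highest and lowest member, and 10 genes with the smallest DESeq2 adjusted p not called by edgeR.

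GC content, length, positions and translated proteins came from GENCODE 29 (GRCh38), matched by current or older symbol for 23523 of 25433 symbols. RefSeq protein sequences, the planned source of protein classes, were not used here. An amino-terminal segment is an 11-residue window within residues 1 to 35 with mean hydropathy of at least 2, and a later segment a 19-residue window starting after residue 50 with at least 1.6. The trend fit removed a lowess trend (span 0.3) of each library on GC content and then on log length, as an offset in edgeR. The alternatives were DESeq2 1.42.0, limma 3.58.1 with voom and sample quality weights, RLE factors, library totals alone, no filter, all 6 groups in 1 fit, a replicate block, a threshold of 0.05, and each library left out. Whether replicate numbers pair libraries was checked by the correlation of same-numbered libraries' deviations from their group means: 0.53, 0.47 and 0.62 under thapsigargin, where values with the replicate block are therefore also given, and not all positive in the unstressed groups. The edgeR, DESeq2, voom and trend-removal fits and the edgeR interaction were run on simulated counts. Those counts held no GC or length trend, and fits with a replicate block were not checked in this way. Replicates differed by more than sampling noise in all pairs (chi-square per degree of freedom 6.99 to 35.8), so each library counted once, and the spread within each group of 3, more than depth, limited the precision. Figures were drawn with matplotlib 3.10.9.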

Additional observations from a re-analysis of the deposited data

How the results depend on the processing

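The count of called genes depended strongly on the processing, while the direction of the 28 called genes did not: all kept their sign under every alternative, and of 420 values 264 stayed past the threshold and 156 did not. The 156 include BHLHA15 with DESeq2, which gave it no adjusted p. In place of 28 genes (20 higher, 8 lower), DESeq2 called 378 (106 higher, 272 lower), no filter on low counts 623 (155, 468), limma voom with sample quality weights 1914 (711, 1203), an adjusted p of 0.05 110 (53, 57) and 1 fit of all 6 groups 3 (2, 1), the last being XBP1, FICD and TGOLN2. RLE factors and library totals gave 25 and 34. With each library left out, calls ran from 0 to 2743, 0 to 1177 higher and 0 to 1566 lower, with 2243 to 6791 genes at an unadjusted p of 0.05. Without GC and length trends, added after seeing the data, 137 were called (57, 80). In that fit the medians of 3 of 30 lists took the other sign: protein disulfide isomerases, N-glycan genes and cytosolic heat shock proteins. Leaving out a library turned the sign of p24 and cargo receptors (without Low ERN2 replicate 1), N-glycan genes (without Low ERN2 replicate 2 or No ERN2 replicate 1) and class I antigen presentation (without Low ERN2 replicate 3). Causes of these differences were not tested.

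The log2 fold change of ERN2 was 2.17 (adjusted p = 0.0235) in the fit of all 6 groups, and 1.66 to 2.41 with each library left out, where it passed 0.01 in 2 of 6 fits. Under thapsigargin, DESeq2 called 39 genes, no filter 1 and leaving out a library 0 (366 to 1577 at an unadjusted p of 0.05). The interaction gave 2, 1 and 0 (269 to 2092).

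The replicate number as a block called 124 genes (35 higher, 89 lower), all 28 among them, and 240 (84, 156) with GC and length trends removed as well. It called 564 under thapsigargin and 1 in the interaction. Same-numbered libraries of the unstressed groups did not deviate together, with correlations of -0.20, -0.29 and 0.34, so in those groups they share only a number. The thapsigargin-treated ones deviated together.

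Of 46 named genes that were not called, 31 passed under at least 1 alternative and 5 changed sign. ERN1 was at -0.0021 with DESeq2, -0.0020 with RLE, -0.015 with voom, -0.021 with the GC and length trends removed, -0.022 with the block as well, and -0.044 to 0.071 with a library left out. BLOC1S1 was at -0.0027 with DESeq2, -0.0033 with RLE, -0.0017 with the block, -0.44 with the trends removed, -0.43 with the block as well, and -0.17 to 0.14 with a library left out. With the trends removed, without and with the block, CELSR3 was at -0.084 and -0.081 and HLA-B at -0.034 and -0.035. EGR3 ranged from -0.25 to 0.042 with a library left out, and was above 0 without No ERN2 replicate 1.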
